A study of Mus musculus with 16 samples.

Results

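The RNA of 16 biopsies of mouse melanoma was compared as 8 tumours under drug treatment against 8 tumours that were either never treated or had escaped the drug. The first class, called responding here, held the 4 tumours taken after 4 days and the 4 taken after 60 days of treatment with a BRAF inhibitor, as the series title names the drug class. The second class, called growing, held 4 untreated tumours and 4 tumours labelled resistant, taken after 120 days of treatment. All 16 samples of the series were used, chosen by their titles alone, and the slide was kept as a block. The labels give the days and the words untreated and resistant, while responding and growing are names for the pooled classes and not measured tumour sizes. The resistant tumours carried drug treatment too, so the classes differ in drug response as labelled and not in drug exposure alone. The name of the inhibitor, its dose, the engineered alleles, the mouse strain and the age of the animals are not given in the sources used here. Sample titles also carry codes, STS for the 4-day tumours and RG for all others, whose meaning is not given. What the STS code marks and the 4-day group therefore cannot be told apart. The RG codes hold a first number that some tumours of a group share, and whether it marks a shared animal or cage is not stated. In the 60-day and the resistant groups the tumours on 1 slide share that number, so code and slide cannot be told apart there. Nothing in the labels states that each biopsy came from a separate animal, so p-values measure the spread between these samples.

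BRAF is a kinase of the pathway that runs from RAS through MEK to ERK, and a mutant form that is always active drives many melanomas. Inhibitors of BRAF shut down ERK output in the tumour cell, slow the cell cycle and often raise pigment genes under the transcription factor MITF, while escape tumours commonly switch the pathway on again. The tumour also holds fibroblasts, vessels, skin and white blood cells, and in melanoma the myeloid cells that gather there are known to restrain T cells. The pooled comparison asks which transcripts differ on average between the responding class and the pooled untreated and resistant tumours. It does not test whether a transcript is back at its untreated level in resistant tumours. In whole tissue, fewer cells of a type and less RNA per cell cannot be told apart.

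Each value is the log2 ratio of tumour RNA (Cy5) over a common reference RNA (Cy3) on the same array, so a difference of 1 is 2-fold. The 16 arrays had between 49.0% and 54.2% of their probes above background. The melanocyte list, used to check the tissue label, had 18 genes measured, and Dct, a pigment enzyme, lay between 4.34 and 7.89 on the 16 arrays. Resistant replicate 1 stood apart in other cell types, with a mean of 1.64 over 25 keratinocyte genes where the other 15 arrays lay between 3.40 and 4.67, and 3.53 over 15 granulocyte genes where they lay between 0.96 and 2.96. Skeletal muscle genes varied within each group, from a mean of -0.28 in 60-day replicate 3 to 3.32 in untreated replicate 1. Each group held the same 2 positions on both slides, so position and group cannot be told apart.

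Of 21911 genes and transcripts tested, 364 (1.66%) differed between responding and growing tumours in limma with the slide as a block (Benjamini-Hochberg adjusted p under 0.05). The responding tumours were higher in 191 (0.872%) and lower in 173 (0.79%). The median size was 0.69, and 95 of the 364 differed at least 2-fold, 57 of them higher and 38 lower. The 8 responding and 8 growing values did not overlap for 41 genes and transcripts (0.187% of those tested), and 33 of these were among the 364. For 28 of the 364 the lower class was above background on fewer than 4 arrays, so these passed the filter on dim probes through the class where they were high. The calls sat close to the threshold. With 1 array left out, removing the 4-day replicates 1, 2 and 4 left 7, 46 and 9 calls, and removing the untreated replicates 1 to 4 left 68, 11, 13 and 10. Removing the 60-day replicates 1 to 4 left 77, 18, 15 and 55, and removing resistant replicate 1 left 42. The calls increased to 696, 1154 and 788 when resistant replicate 2, 3 or 4 was removed, and to 1811 when 4-day replicate 3 was. All 364 kept their direction in each of these 16 fits, and all 364 had an unadjusted p under 0.05 in each. They were selected on these same arrays, which by itself favours both outcomes. For the 87 called genes and transcripts named in the text, the difference moved by less than 1.5 times under every removal of 1 array. Only Cnn2, Pfkfb4 and 2 noncoding transcripts of chromosome 2, described further on, passed in all 16 fits among those named. The split of higher against lower was 17 and 26 with no filter on dim probes, 31 and 69 with scaling between arrays, 35 and 51 with the scanner software's own signals, 31 and 45 in the deposited value table, and 3 and 0 with median centring only.

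**Figure D1:**
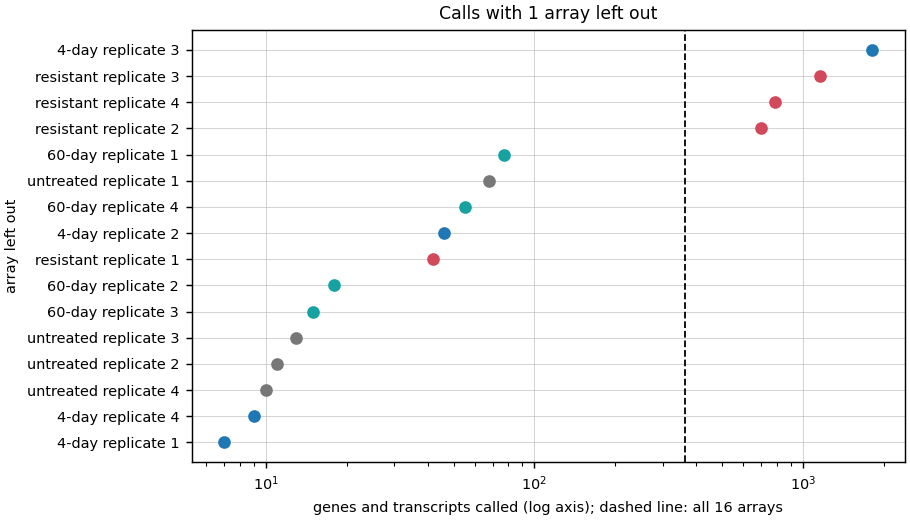
Number of genes and transcripts called between responding and growing tumours (x axis, log scale) when the array named on the y axis is left out, coloured by group; the dashed line marks the 364 called with all 16 arrays. Leaving out 12 of the arrays gave between 7 and 77 calls, and leaving out 4-day replicate 3 or resistant replicate 2, 3 or 4 gave between 696 and 1811.

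The same 16 arrays were fitted as 4 groups to see where the untreated and the resistant tumours stood against each other. Between these, 14 genes and transcripts (0.0639%) passed, 1 of them among the 364, and between 60-day and 4-day tumours 1 passed (0.00456%), which was not among them. For 270 of the 364 the difference of resistant minus untreated tumours was smaller than 0.5 times the pooled difference, beside 5339 of all 21911. The 364 were selected for their pooled difference, which by itself lowers this ratio. It pointed toward the responding tumours in 277 of the 364 and in 13768 of all 21911, with a median of 0.15 in that direction over the 364. In single pairs of groups, 643 passed for 4-day minus untreated (2.93%), 615 for 60-day minus untreated (2.81%), 8 for 4-day minus resistant (0.0365%) and 0 for 60-day minus resistant (0%). These pairs share arrays, so their values for the 364 are given side by side only. Genes called higher had medians of 0.83 for 4-day and 0.76 for 60-day tumours against untreated ones, and 0.68 and 0.64 against resistant ones. Genes called lower had medians of -0.76 and -0.70 against untreated tumours, and -0.61 and -0.50 against resistant ones. Adh1, a dehydrogenase of alcohol and retinol, shows the other pattern. It was 2.05 ± 0.24 higher in resistant than in untreated tumours (limma adjusted p = 0.00719), and its pooled difference of 1.13 ± 0.41 did not pass (adjusted p = 0.121).

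The largest rise among genes with a RefSeq symbol that passed was in Dbp, a transcription factor whose level follows the circadian clock (chromosome 7, probe at 52965322 to 52965381, mm9). Untreated replicates 1 to 4 had -1.23, -1.02, -2.12 and -1.03, and the resistant ones had -1.53, -0.76, -0.94 and -1.83. The 4-day tumours had 1.63, 2.25, 2.40 and 1.52, all above every growing tumour, and the 60-day tumours had 0.65, 0.20, -0.73 and -0.78, of which replicate 4 lay just under the highest growing value. The pooled difference was 2.20 ± 0.44 (SE, 8 arrays against 8, limma adjusted p = 0.0419), or 4.59-fold, with 2.08 on slide 1 and 2.32 on slide 2. Another probe of Dbp gave 2.38. Resistant minus untreated tumours differed by 0.09 (95% interval -0.62 to 0.80).

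Hlf, a transcription factor of the same family (chromosome 11, probe at 90200696 to 90200755, mm9), had the largest rise among genes whose classes did not overlap. It had 2.21, 2.74, 1.56 and 1.87 in the 4-day tumours, 2.30, 1.35, 1.00 and 1.58 in the 60-day tumours, -0.19, 0.84, 0.30 and 0.55 in the untreated and -0.28, 0.97, 0.69 and 0.73 in the resistant ones. The lowest responding value was thus just above the highest growing one, and the difference was 1.38 ± 0.25 (limma adjusted p = 0.0303). Of 9 clock output genes, 4 were called higher and none lower, where 0.872% of all genes tested were called higher. The list had 2 negative differences, and a median difference of 1.07 beside -0.01 over all genes tested. The other members that passed were Nr1d1 (1.07 ± 0.19), a nuclear receptor that represses clock genes, and Ciart (1.07 ± 0.23), a repressor of the clock's activator pair. The list median was 1.51 for 4-day minus untreated tumours and 0.50 for 60-day minus resistant tumours. None of 10 core clock genes passed, with a median of 0.54. The core clock median was 0.93 for 4-day minus untreated and 0.11 for 60-day minus resistant tumours. None of the labels states the time of day at which a biopsy was taken, and its part in these differences was not tested.

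The promoter of Ciart is shown because it holds 3 copies of the E-box that the clock's activator pair binds, in capitals (letters CACGTG). The stretch is the 120 bases before the RefSeq start on the minus strand of GRCm38.p6, chr3:95882229-95882348.

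Ciart: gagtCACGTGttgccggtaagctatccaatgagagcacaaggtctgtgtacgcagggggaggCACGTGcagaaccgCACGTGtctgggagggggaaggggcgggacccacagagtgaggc

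An E-box was found in 9.43% of 12500 promoters of tested genes (300 bases each, both strands, RefSeq), in 10.9% of 128 promoters of genes that rose and in 11.2% of 116 of genes that fell. The promoters of Dbp, Hlf and Nr1d1 held no E-box. The D-box that DBP and HLF bind (TTATGNAA) was found in 6.25%, 0.862% and 2.45% of the promoters of genes that rose, genes that fell and all tested genes. Among genes that rose this was 8 promoters, with Skint9 and Skint10, of a family described further on, among them. The promoters of Dbp, Hlf, Nr1d1 and Ciart held no D-box. A match of letters is a description and not a binding site.

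Tsc22d3, which encodes a glucocorticoid-induced leucine zipper protein, was 1.21 ± 0.28 higher in responding tumours, and Zbtb16, another known glucocorticoid target, 1.46 ± 0.35 (limma adjusted p = 0.0484 and 0.0499). Zbtb16 was uneven within the 60-day group, with 3.92, 4.40, 1.30 and 1.32 in replicates 1 to 4, while the untreated tumours had 0.83, 0.82, 0.17 and 0.54 and the resistant tumours 2.29, 1.41, 1.23 and 0.68. Resistant tumours thus stood 0.81 above untreated ones (95% interval -0.19 to 1.80), over 0.5 times the pooled difference. These were the only members called among 16 glucocorticoid targets, where 0.872% of all genes tested were called higher. The list median was 0.23 (0.40 without resistant replicate 1), or 0.75 for 4-day minus untreated and -0.0019 for 60-day minus resistant tumours.

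**Figure D2:**
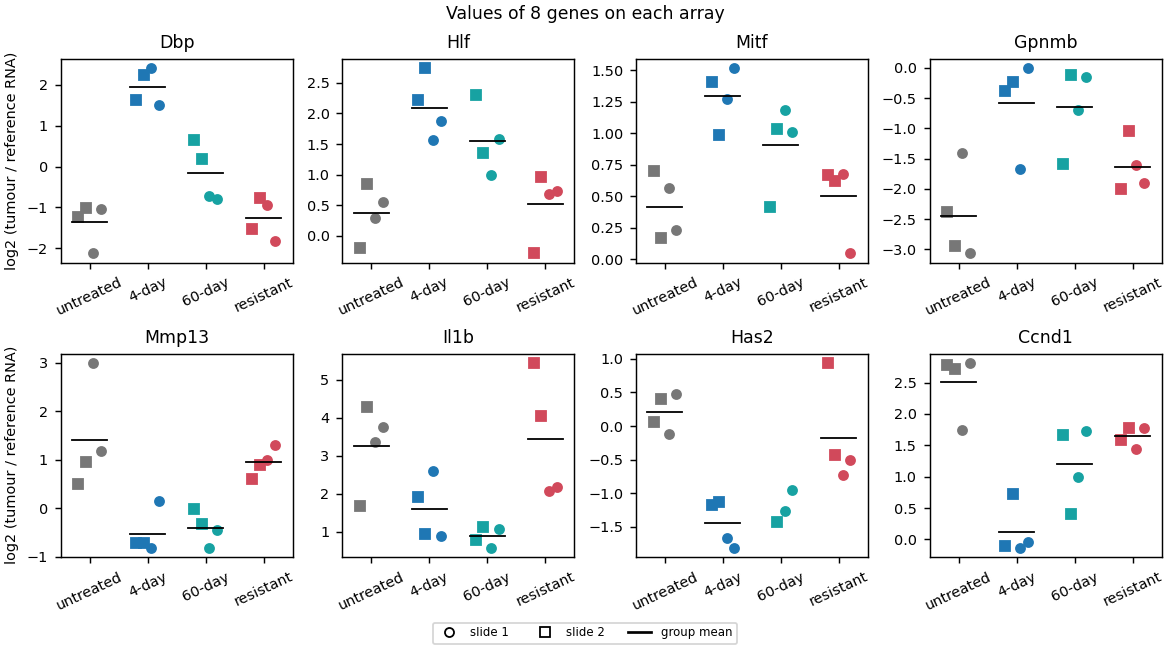
Log2 ratio of tumour over reference RNA (y axis) on each of the 16 arrays for 8 genes, by group (x axis), with circles for slide 1, squares for slide 2 and lines for group means. Dbp, Hlf, Mitf and Gpnmb were higher and Mmp13, Il1b, Has2 and Ccnd1 lower in the 4-day and 60-day tumours, and only Hlf, Mmp13 and Has2 had no overlap between responding and growing values.

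The other RefSeq genes described here that rose without overlap were smaller in size, from 0.31 for Lrrc51 to 0.81 for Ahnak2. Ahnak2, a giant scaffold protein, lay between 0.85 and 1.30 in responding tumours (median 1.06) and between -0.12 and 0.74 in growing ones (median 0.08). Its difference was 0.81 ± 0.14 (limma adjusted p = 0.0303), and resistant minus untreated tumours had 0.53 ± 0.15. Ctns, the transporter that carries cystine out of lysosomes, lay between 1.31 and 1.90 (median 1.53) in responding and between 0.50 and 1.16 (median 0.81) in growing tumours. Its difference of 0.77 ± 0.11 (limma adjusted p = 0.0163) left resistant and untreated tumours 0.02 apart (95% interval -0.34 to 0.37). Sun2, a nuclear envelope protein, had 0.70 ± 0.15, and Lhfpl5, a channel partner known from inner ear hair cells, 0.64 ± 0.14. Aplp2, a relative of the amyloid precursor protein, had 0.54, Rin2, an activator of RAB5, 0.51, and Atg13, a starter of autophagy, 0.51. Boc, a co-receptor for Hedgehog ligands, had 0.48, and the mitochondrial coenzyme A carrier Slc25a42 0.45. The last 3 were Agap3 (0.40, with 0.05 for another probe), Rab11fip4 (0.35) and Lrrc51. Adjusted p in limma for these genes lay between 0.0163 for Ctns and 0.0487 for Lrrc51. Against untreated and against resistant tumours, 4-day tumours had 0.76 and 0.33 for Atg13, but 0.31 and 0.32 for Rab11fip4.

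Of 18 measured pigment cell genes, 4 were called higher in responding tumours and none lower, where 0.872% of all genes tested were called higher. The median difference of the list was 0.93, and 14 members did not pass. Mitf, the transcription factor that governs the melanocyte lineage, had 1.41, 0.98, 1.27 and 1.51 in the 4-day and 0.41, 1.03, 1.18 and 1.01 in the 60-day tumours. It had 0.70, 0.17, 0.56 and 0.23 in the untreated and 0.67, 0.62, 0.68 and 0.05 in the resistant tumours. Replicate 1 of the 60-day group was the only responding tumour inside the growing range for this gene, and the difference was 0.64 ± 0.15 (limma adjusted p = 0.0484). Gpnmb, a membrane glycoprotein of pigment cells and macrophages, had the largest difference of the list, 1.44 ± 0.33 (adjusted p = 0.0484), with 4-day replicate 3 (-1.68) and 60-day replicate 1 (-1.59) inside the growing range of -3.06 to -1.04 and the other 6 responding tumours above it. Oca2, a melanosome transporter, had 1.10 ± 0.24 and Gpr143, a melanosome receptor, 1.03 ± 0.23 (adjusted p = 0.0468 and 0.0468). Both were above background on all 8 responding arrays but Oca2 on only 3 and Gpr143 on only 2 of the 8 growing ones, so they passed the filter on dim probes through the responding tumours and their sizes rest on mostly dim growing values. Mitf and Gpnmb were above background on all 16 arrays. Oca2 turned to -0.09 (adjusted p = 0.977) in the deposited value table, the only called gene named here whose direction changed under any alternative.

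The median of the pigment list was 0.90 for 4-day minus untreated and 0.87 for 60-day minus resistant tumours, and 0.06 for resistant minus untreated tumours. Gpnmb differed from that median: 4-day and 60-day tumours stood 1.87 and 1.81 above untreated ones, but 1.06 and 1.00 above resistant ones. The enzymes of melanin synthesis pointed the same way without passing, with 0.77 ± 0.21 for Tyr (limma adjusted p = 0.0633) and 0.99 ± 0.38 for Dct (adjusted p = 0.143). Without resistant replicate 1 the median of the list was 0.82.

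Of 24 measured hair shaft genes, 2 were called higher, none lower, and 22 did not pass, where 0.872% of all genes tested were called higher. All 24 had a positive difference, with a median of 1.51 (1.00 on slide 1, 1.81 on slide 2, 1.23 without resistant replicate 1). The members called were Dsg4, a desmosome protein of the hair shaft (1.56 ± 0.35, limma adjusted p = 0.0468), and Hoxc13, a transcription factor that drives hair keratins (0.98 ± 0.23, adjusted p = 0.0499). The list's mean on single arrays ran from 3.28 to 4.61 in responding tumours. In growing tumours it ran from 0.86 in resistant replicate 1 and 1.07 in untreated replicate 4 to 3.76 in resistant replicate 4, so the classes overlapped. Picked after their values were seen, the hair keratins Krt40 (1.51 ± 0.35) and Krt82 (1.26 ± 0.28) and the keratin-associated proteins Krtap4-9 (1.76 ± 0.39) and Krtap9-1 (1.59 ± 0.38) were higher too. In the growing tumours Krtap4-9 had 2.12, 0.18, 2.70 and 0.21 in the untreated and 0.09, 0.44, 2.05 and 2.32 in the resistant replicates 1 to 4. Keratin-associated genes are near-identical copies of each other, so their probes may share signal.

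Of the other skin lists none had a called member. Keratinocyte genes had a median of 0.59 (0.01 on slide 1, 1.38 on slide 2, 0.25 without resistant replicate 1), sebaceous gland genes 0.87 and adipocyte genes 0.52. Krt14, a keratin of the basal epidermis, had 0.07 ± 0.20 (limma adjusted p = 0.876). A set of 5 genes of the Skint family, which are expressed by keratinocytes and shape skin T cells, passed and were picked after their values were seen: the largest were Skint4 (1.28 ± 0.30, with the 4-day replicate 2 spot missing) and Skint6 (0.89 ± 0.20). Skint9, Skint5 and Skint10 had 0.67, 0.59 (above background on 3 of 8 growing arrays) and 0.43, and this family too is made of near-identical copies. How much skin or hair each biopsy held and the part of this in the pigment result were not tested.

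**Figure D3:**
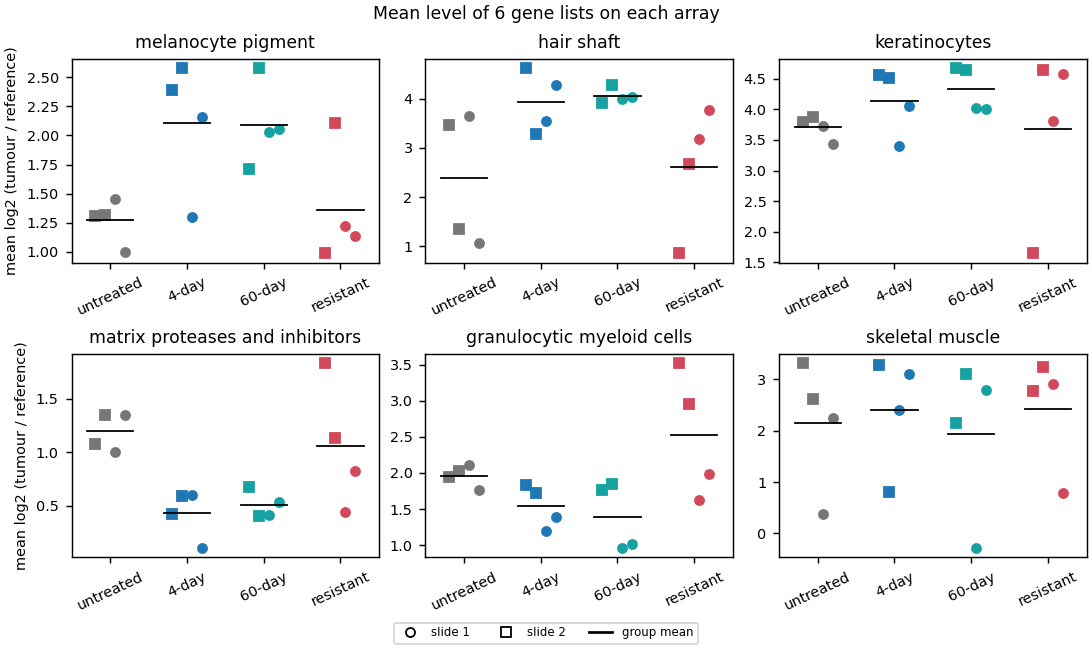
Mean log2 ratio over the measured members of 6 gene lists (y axis) on each of the 16 arrays, by group (x axis), with circles for slide 1, squares for slide 2 and lines for group means. Hair shaft levels in responding tumours lay between 3.28 and 4.61 and those of growing tumours between 0.86 and 3.76, and resistant replicate 1 was lowest for keratinocytes and highest for granulocytic cells.

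Among genes lower in responding tumours, Mmp13, a collagenase (chromosome 9, probe at 7282762 to 7282821, mm9), had the largest fall without overlap. The 4-day tumours had -0.71, -0.73, -0.81 and 0.14 and the 60-day tumours -0.02, -0.32, -0.82 and -0.46, while the untreated had 0.51, 0.96, 3.00 and 1.17 and the resistant 0.60, 0.88, 1.00 and 1.30. Every growing tumour was above every responding one. The difference was -1.64 ± 0.27 (limma adjusted p = 0.028), with -2.10 and -1.18 on the slides and -0.46 for resistant minus untreated tumours (95% interval -1.32 to 0.39). Has2, which makes hyaluronan, had -1.17, -1.13, -1.67 and -1.81 in the 4-day tumours and -1.43, -1.27 and -0.96 in the 60-day replicates 2 to 4, its spot in replicate 1 being missing. It had 0.06, 0.40, -0.12 and 0.47 in the untreated and 0.94, -0.43, -0.73 and -0.50 in the resistant tumours, again without overlap, and a difference of -1.34 ± 0.22 (adjusted p = 0.028).

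Of 30 measured genes for matrix proteases, their receptor and their inhibitors, 6 were called lower and none higher. Over all genes tested, 0.79% were called lower. The list had 4 positive differences and a median of -0.56. Adamts4, which cleaves proteoglycans, had -1.94 ± 0.31 (limma adjusted p = 0.0236), with 4.76, 4.93, 4.48 and 4.70 in untreated, 2.46, 1.95, 2.27 and 1.13 in 4-day, 3.48, 2.47, 3.29 and 3.19 in 60-day and 5.06, 4.13, 3.43 and 4.26 in resistant tumours. The 60-day tumours stood between the 4-day and the untreated ones for this gene, and resistant replicate 3 lay inside their range. Timp1, an inhibitor of metalloproteases, had -1.81 ± 0.34 (adjusted p = 0.0374), with all 8 responding tumours between -1.57 and -0.38 and the resistant ones spread over 2.62, 1.05, -0.80 and 0.26. Adamts1 had -1.33 ± 0.32 and Adam19, a membrane protease, -1.28 ± 0.27, though another Adam19 probe gave -0.25. Against untreated tumours, 4-day and 60-day tumours had -1.94 and -1.69 for Adam19, but -0.87 and -0.62 against resistant ones. For Adamts1 these values were -1.84 and -1.52, and -1.15 and -0.83. Plaur, the receptor that holds urokinase at the cell surface, had -1.21 ± 0.28 (adjusted p = 0.0484), and its resistant values of 1.33, 0.05, -1.92 and -1.12 ran from far above the responding range to inside it in replicate 3. The list median was -0.69 for 4-day minus untreated and -0.39 for 60-day minus resistant tumours, and -0.30 on slide 1 and -0.84 on slide 2.

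The promoters of Mmp13 and Plaur are printed because both hold the AP-1 motif (letters TGANTCA, in capitals) bound by FOS and JUN factors, which act downstream of ERK. Each stretch is the 120 bases before the RefSeq start on the plus strand of GRCm38.p6, chr9:7272394-7272513 for Mmp13 and chr7:24462363-24462482 for Plaur. The motif ends 29 and 63 bases before the start. No match was found in the promoters of Adamts1, Adam19 and Timp1, which were called lower too.

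Mmp13: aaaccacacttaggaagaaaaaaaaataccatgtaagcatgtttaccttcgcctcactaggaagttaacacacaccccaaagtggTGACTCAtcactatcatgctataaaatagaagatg

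Plaur: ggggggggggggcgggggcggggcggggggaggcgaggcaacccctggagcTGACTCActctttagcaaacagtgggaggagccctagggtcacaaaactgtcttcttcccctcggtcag

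The motif was found in 8.62% of 116 promoters of genes that fell, 3.12% of 128 of genes that rose and 6.07% of the 12500 of tested genes. The ETS motif CCGGAAG was found in 11.2%, 5.47% and 15.4% in the same order, and the TATA box TATAAA in 18.1%, 10.2% and 9.36%.

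Genes of activated fibroblasts had 2 of 21 members called lower (Timp1 and Cthrc1, a secreted protein of wound fibroblasts), beside 0.79% of all genes tested. Their median was -0.67. Cthrc1 fell by 1.10 ± 0.25 (limma adjusted p = 0.0484), but resistant tumours stood -1.15 from untreated ones (adjusted p = 0.0757), with 3.25, 2.94, 2.59 and 2.53 in the untreated and 1.62, 2.67, 1.47 and 0.94 in the resistant replicates. None of 22 collagen genes passed (median -0.32, or -0.20 without untreated replicate 4), and Col1a1, the main fibrillar collagen, had -0.42 ± 0.23 (adjusted p = 0.293). Clec3b, a plasminogen-binding protein of resting fibroblasts, was higher by 0.93 ± 0.19 (adjusted p = 0.0439). It was the single call among 20 genes of resting fibroblasts and their matrix, beside 0.872% of all genes tested called higher. Of 25 genes of the actin skeleton and adhesion, 3 were called lower and none higher, beside 0.79% of all genes tested called lower. Cnn2, a calponin that binds actin, was the most stable of them, with responding values between -0.75 and -0.45 and growing values between -0.30 and 0.36. Its difference was -0.54 ± 0.07 (adjusted p = 0.012, and -0.19 for another probe). Itga5, the fibronectin receptor subunit, had -0.75 ± 0.17, and the actin-binding gene Tagln2 -0.57 ± 0.13.

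S1pr3, a receptor for sphingosine phosphate, lay between 0.17 and 1.11 in responding tumours (median 0.70) and between 1.12 and 2.79 (median 1.94) in growing ones. The difference was -1.22 ± 0.23 (limma adjusted p = 0.0374). Snai1, a repressor that drives epithelial cells toward a mesenchymal state, had -0.97 ± 0.22, with 1.35, -0.14, -0.12 and -0.07 in the resistant tumours, where replicate 1 was far above the others. Fxyd5, a regulator of the sodium pump and of adhesion, had -0.95 ± 0.20 and the same replicate highest, at 1.22. Aldh1l2, a mitochondrial folate enzyme, had -1.21 ± 0.23, and Mthfd1l, which acts in the same folate pathway, -0.71 ± 0.16. These 2 were the only calls among 27 genes of amino acid stress and one-carbon metabolism, whose median was 0.01. Of all genes tested, 0.79% were called lower. Ccnjl, a cyclin J-like gene, had -0.94 ± 0.16, and Rbm28, a splicing and ribosome factor, -0.31 ± 0.05 with no overlap between -0.19, the highest responding value, and -0.14, the lowest growing one. The remaining falls without overlap were in I830077J02Rik (-0.70), the noncoding RNA gene Pvt1 (-0.66, another probe -0.36), Vmn1r183 (-1.05, another probe -0.51) and Gm9767. Pvt1 had -0.85 for 60-day minus untreated but -0.26 for 60-day minus resistant tumours, where I830077J02Rik had -0.72 and -0.75. The vomeronasal receptor Vmn1r183 belongs to a large family of near-identical genes and was above background on 4 of 8 responding arrays. Gm9767 was not well above background on any responding array and was above it on 6 of 8 growing ones, so in Cy5 alone it was at least 1.34-fold higher in growing tumours (limma adjusted p = 0.0484 for the ratio). Bounds of this kind use the lowest signal above background on each array and are open to dye bias, since no dyes were swapped.

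Of 17 measured genes of MAPK pathway output, 2 were called lower and none higher, where 0.79% of all genes tested were called lower. The other 15 did not pass, and the list had 15 negative differences in all and a median of -0.49. Ccnd1, which encodes cyclin D1, had 2.78, 2.71, 1.75 and 2.81 in untreated, -0.10, 0.73, -0.13 and -0.04 in 4-day, 1.66, 0.41, 0.99 and 1.73 in 60-day and 1.58, 1.77, 1.45 and 1.77 in resistant tumours. The 4-day tumours were below all others except 60-day replicate 2, while the other 60-day tumours ran up to the resistant level. The pooled difference was -1.42 ± 0.32 (limma adjusted p = 0.0482), with -2.40 for 4-day minus untreated and -0.45 for 60-day minus resistant tumours. Phlda1, a target of ERK signalling, was more even over the pairs, at -1.26 and -0.63, with a pooled -0.94 ± 0.17 (adjusted p = 0.0303). The feedback inhibitors did not pass, with -0.52 ± 0.20 for Dusp6, -0.93 ± 0.34 for Spry4 and -0.51 ± 0.22 for the transcription factor Etv5 (adjusted p = 0.149, 0.131 and 0.181). For Dusp6 the resistant tumours stood at 0.55, 0.39, -0.33 and 0.31 and the untreated ones at 0.89, 1.10, 1.26 and 1.20, without overlap. The list median was -0.77 for 4-day minus untreated, -0.10 for 60-day minus resistant and -0.29 for resistant minus untreated tumours. None of 22 genes that build the pathway from RAS to ERK passed, with 0.30 ± 0.13 for Braf (adjusted p = 0.175).

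Cell cycle genes were mostly uncalled. Of 31 genes of DNA replication and G1/S, 2 passed, both lower: Ccne1, cyclin E1 (-0.52 ± 0.12), and Cdk6, a partner of the D cyclins (-0.44 ± 0.09). The share called lower over all genes tested was 0.79%. Ccnd2, which encodes cyclin D2, fell without overlap, from growing values of 1.16 to 2.10 to responding values of 0.48 to 1.11 (difference -0.68 ± 0.14, limma adjusted p = 0.0446). None of 26 mitosis and spindle genes passed, and Mki67, a marker of dividing cells, had -0.11 ± 0.28 (adjusted p = 0.861), a sign that turned under 4 of the 29 alternatives. The mitosis list had a median of -0.60 for 4-day minus untreated and 0.17 for 60-day minus resistant tumours, and the replication list -0.51 and 0.04, so neither had one direction in both pairs. The pooled mitosis median of -0.20 became -0.12 without 4-day replicate 3 and -0.09 without untreated replicate 1.

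The interleukin Il1b, a fever and inflammation cytokine made by myeloid cells, had the largest fall of all genes with a RefSeq symbol that passed. The untreated tumours had 1.67, 4.29, 3.36 and 3.75, the 4-day tumours 1.92, 0.95, 2.61 and 0.90, the 60-day tumours 0.80, 1.12, 0.58 and 1.07 and the resistant tumours 5.45, 4.05, 2.06 and 2.19. All 4 of the 60-day values lay below every growing value, while 4-day replicates 1 and 3 lay inside the growing range. The difference was -2.11 ± 0.48 (limma adjusted p = 0.0484), and resistant minus untreated tumours had 0.17 (95% interval -1.34 to 1.68). Il1b was the only call among 20 myeloid chemokines and growth factors, where 0.79% of all genes tested were called lower. The median of that list was -0.74, or -0.57 without resistant replicate 1. Ccl2, which draws monocytes, had -0.99 ± 0.25 (adjusted p = 0.0506), and Csf1, a macrophage growth factor, -0.27 ± 0.16 (adjusted p = 0.364).

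Granulocyte genes had 1 of 15 members called, S100a9, a calcium-binding protein of neutrophils. It had 6.45, 6.47, 6.03 and 5.85 in untreated, 6.52, 5.86, 5.15 and 5.17 in 4-day, 6.08, 6.01, 3.68 and 3.26 in 60-day and 7.46, 7.37, 5.62 and 6.59 in resistant tumours, with 60-day replicates 3 and 4, both on slide 1 and with the same code number, far below all others. Its difference was -1.26 ± 0.30 (limma adjusted p = 0.0499), and its partner S100a8 had -2.30 ± 0.59 (adjusted p = 0.0529). The median of the granulocyte list was -0.84, or -0.52 without resistant replicate 1. It was -0.35 for 4-day minus untreated and -1.38 for 60-day minus resistant tumours. None of 20 monocyte and macrophage genes passed (median -0.43), and the differences were -0.45 ± 0.22 for Csf1r and -0.57 ± 0.30 for Ccr2, receptors for macrophage growth factor and for monocyte chemokines. Among 15 products with which myeloid cells suppress T cells, S100a9 and Tgfb1 (-0.51 ± 0.12, adjusted p = 0.0499) were called lower, beside 0.79% of all genes tested. Arg1, an enzyme that uses up arginine, had -0.70 ± 0.28 (adjusted p = 0.156). None of 15 T cell, 15 cytotoxic and NK cell, 13 checkpoint or 31 interferon response genes passed, with medians of -0.03, -0.18, -0.33 and -0.23. Without untreated replicate 3 the checkpoint median was -0.15 and the interferon median -0.14. For 4-day minus untreated and 60-day minus resistant tumours, checkpoint medians were -0.42 and -0.11 and interferon medians -0.51 and -0.03. Cd8a was above background on 1 of 8 responding and 3 of 8 growing arrays, and Cd274, the ligand PD-L1, had -0.19 ± 0.24 (adjusted p = 0.685). Cfb, a complement factor, was the single call among 17 complement genes (-0.71 ± 0.17).

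Further genes of interleukin signalling and inflammatory cell death passed and were picked after their values were seen. The alarmin Il33 was lower by 1.29 ± 0.23, with responding values of 0.35 to 1.53 and growing values of 1.03 to 2.64. The receptor subunit Il1rap had -0.84 ± 0.18, though its other probes gave -0.60 to -0.24. Bcl3, a partner of NF-kB, had -1.35 ± 0.26, and Casp4, which senses bacterial lipid in the cell, -0.99 ± 0.22. Ripk3 and Mlkl, the kinase and the pore protein of necroptosis, had -0.69 ± 0.15 and -0.65 ± 0.12 (limma adjusted p = 0.0468 and 0.0303).

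The smallest p-value of all belonged to a noncoding transcript on chromosome 2 with its probe at 128211991 to 128212050 (mm9). It had 1.51, 1.40, 1.45 and 1.27 in untreated, 0.47, 0.70, -0.03 and -0.31 in 4-day, 0.30, 0.13, 0.07 and 0.07 in 60-day and 1.40, 1.13, 0.63 and 0.91 in resistant tumours. Only 4-day replicate 2 reached into the growing range, just above resistant replicate 3. The difference was -1.04 ± 0.12 (limma adjusted p = 0.00548). A transcript with its probe at 128137480 to 128137539 had -0.95 ± 0.13 (adjusted p = 0.012), with no overlap between the classes. These are the 2 noncoding transcripts that passed with any single array left out. Other called probes nearby were at 128142132 (-0.47 ± 0.07), 128217885 (-0.64 ± 0.12) and in Morrbid (-0.42 ± 0.10, probe at 128142039), a long noncoding RNA known to control the lifespan of short-lived myeloid cells. Morrbid and the probe at 128142132 were each above background on 3 of 8 responding arrays. All 5 were lower in responding tumours and were picked after their values were seen, and their probes may read parts of 1 transcription unit.

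Several called genes encode protein folding factors of the endoplasmic reticulum, a theme named after the values were seen and not tested as a group. Hspa5, the chaperone BiP, had 0.34, 0.30, 0.27 and 0.34 in untreated, -0.35, -0.20, -0.30 and -0.31 in 4-day, 0.37, 0.15, -0.12 and -0.15 in 60-day and 0.59, 0.38, 0.22 and 0.39 in resistant tumours. The 4-day values were below all others, and of the 60-day tumours replicate 1 lay inside the growing range. The difference was -0.47 ± 0.09 (limma adjusted p = 0.0419). Pdia6 and Pdia3, which form disulfide bonds, had -0.54 ± 0.13 and -0.39 ± 0.09, and the calcium-binding chaperone Calr -0.34 ± 0.08 (adjusted p = 0.0499, 0.0468 and 0.0468). Hspa5, Pdia6 and Calr were the 3 calls among 19 heat shock and chaperone genes (median -0.13), and Calr and Pdia3 the 2 among 16 of MHC class I presentation (median -0.10). The share called lower over all genes tested was 0.79%. Picked after their values were seen, the disulfide isomerase P4hb had -0.38 ± 0.09, the calcium-binding Calu -0.66 ± 0.13 and the glycoprotein sensor Uggt1 -0.38 ± 0.07 (another probe -0.09).

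The promoters of Hspa5, Pdia6 and Calr are shown because each holds the ER stress element, the letters CCAAT and CCACG with 9 bases between them, searched on both strands after the values were seen. Capitals mark these letters, which in Calr lie on the other strand. Sequences are from RefSeq on GRCm38.p6, ending at the base before the start: chr2:34771970-34772089 (plus strand) for Hspa5, chr12:17266469-17266588 (plus) for Pdia6 and chr8:84846932-84847111 (minus) for Calr.

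Hspa5: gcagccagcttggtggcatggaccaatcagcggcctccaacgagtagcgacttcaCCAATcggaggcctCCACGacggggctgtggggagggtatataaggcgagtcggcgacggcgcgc

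Pdia6: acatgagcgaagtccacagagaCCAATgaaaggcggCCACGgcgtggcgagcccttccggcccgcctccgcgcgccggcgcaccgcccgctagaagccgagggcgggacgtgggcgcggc

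Calr: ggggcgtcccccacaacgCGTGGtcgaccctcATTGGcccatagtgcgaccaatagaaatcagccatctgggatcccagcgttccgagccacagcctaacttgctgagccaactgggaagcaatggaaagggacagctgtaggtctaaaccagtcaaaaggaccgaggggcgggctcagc

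The element was found in 3 of 116 promoters of genes that fell (2.59%), in 0 of 128 of genes that rose and in 19 of 12500 of tested genes (0.152%). The CCAAT box alone, part of the element, was found in 42.2%, 34.4% and 38.1%.

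Among the other lists, the Wnt pathway had a median of 0.32 and 2 of 29 members called higher, beside 0.872% of all genes tested. Both encode inhibitors of the pathway that it induces itself, Nkd1 (0.92 ± 0.21, another probe 0.25) and the receptor ligase Znrf3 (0.35 ± 0.08). Pfkfb4, a regulator of glycolysis, was the only call among 24 hypoxia and glycolysis genes, with -0.44 ± 0.07 (limma adjusted p = 0.0163). The share called lower over all genes tested was 0.79%. No gene passed among 29 of oxidative phosphorylation (median -0.01), 22 of MYC targets and ribosome biogenesis (-0.04), 20 of cholesterol synthesis (0.17), 15 immediate early genes (0.01), 20 receptors linked to dedifferentiation and resistance (-0.12), 19 of endothelium (-0.09) or 25 of skeletal muscle (-0.09).

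**Figure D4:**
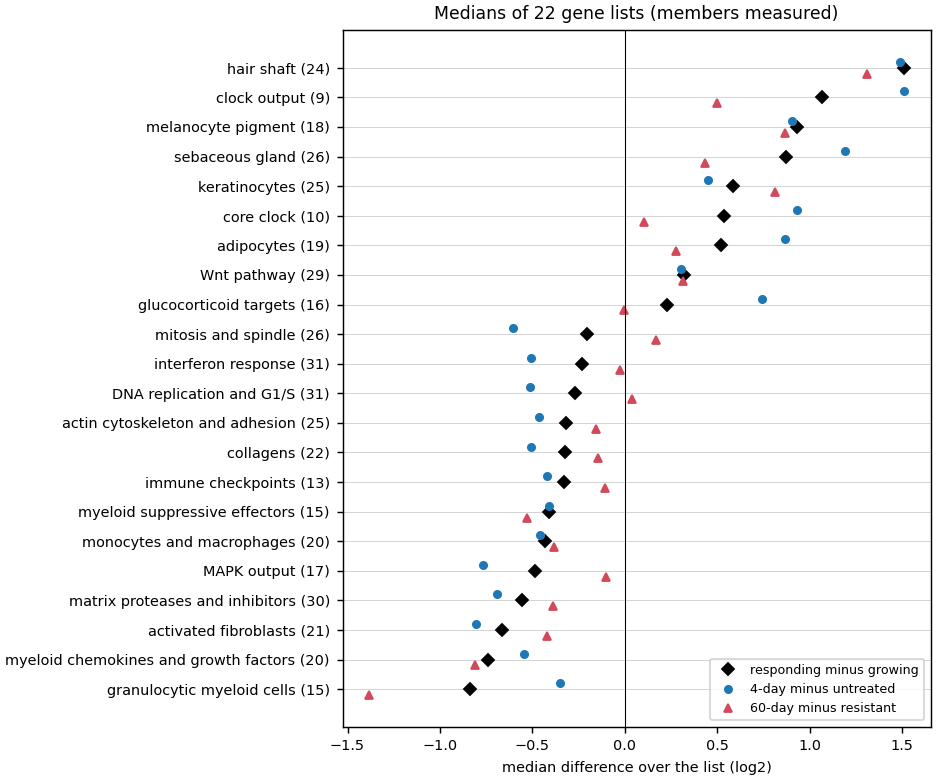
Median difference over the measured members (x axis, log2) of 22 gene lists (y axis, members measured in brackets) for responding minus growing tumours (diamonds), 4-day minus untreated (circles) and 60-day minus resistant tumours (triangles). Hair shaft, pigment and Wnt medians stood close together in both pairs, at 1.49 and 1.31, 0.90 and 0.87, and 0.30 and 0.32. The mitosis median changed sign, at -0.60 and 0.17. Replication and glucocorticoid medians, at -0.51 and 0.75 in the first pair, were only 0.04 and -0.0019 in the second.

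To see whether the pattern held in tumours that share no array, each treated group was set against 1 growing group alone. On its own 8 arrays, 4-day minus untreated tumours had 24 genes and transcripts called (0.11%). That count was 0, 7, 200 and 2 without 4-day replicates 1 to 4, and 2, 1, 17 and 0 without untreated replicates 1 to 4. Of these, 21 (87.5%) had the same sign in 60-day minus resistant tumours, measured on the other 8 arrays, where 65.94% of all genes tested had the same sign in both. The median size of the 24 was 1.42 in the first comparison and 0.47, in the same direction, in the second, and 9 of them had an unadjusted p under 0.05 there. The largest of the 24 were Dbp (3.30 and 1.10), Adamts4 (-2.77 and -1.11) and Ccnd1 (-2.40 and -0.45). Has2 kept more of its size (-1.65 and -0.97), Cthrc1 less (-1.81 and -0.38), and Adh1 had no matching difference (2.32 and -0.06). In the other direction 3 were called in 60-day minus resistant tumours (0.0137%), 2 without resistant replicate 1 and 0 without any other 1 of these 8 arrays. All 3 had the same sign in 4-day minus untreated tumours. The largest of these was Gm5849 (2.29 and 1.92), a gene without a RefSeq symbol here that was picked after its values were seen.

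With the treated groups exchanged, 60-day minus untreated tumours had 1873 called (8.55%), of which 80.03% had the same sign in 4-day minus resistant tumours, beside 57.78% of all genes. No gene was called in 4-day minus resistant tumours on their own arrays (0%), where limma gave 1424 at an unadjusted p under 0.05. As a description over genes, which do not vary independently, the differences correlated with r = 0.642 in the first pairing and 0.493 in the second. The 2 comparisons of a pairing still share the reference RNA and both slides.

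**Figure D5:**
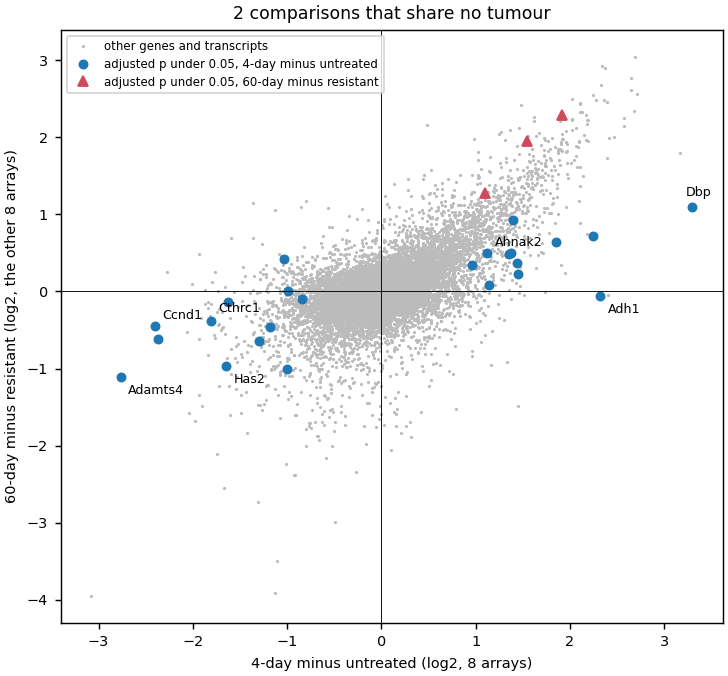
Difference of 4-day minus untreated tumours (x axis, log2, 8 arrays) against 60-day minus resistant tumours (y axis, log2, the other 8 arrays) for all 21911 genes and transcripts, with circles for the 24 called in the first and triangles for the 3 called in the second. Of the 24, 21 lie on the same side of 0 in both comparisons, Dbp at 3.30 and 1.10 and Adamts4 at -2.77 and -1.11 among them, while Adh1 lies at 2.32 and -0.06.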

How the data were processed

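RNA from 16 tumours was hybridised in Cy5 against a common mouse reference in Cy3 on 2-colour Agilent arrays, with no dye swap, on 2 slides. Per the file headers, Agilent Feature Extraction 10.7.3.1 measured the intensity of each spot and its local background, with probe coordinates on mm9, and also gave a log10 ratio and flags for outlier, saturated and above-background spots. The authors' deposited value table holds log2 ratios; set against the scanner log ratios it had a slope of 0.993, medians of -0.194 to -0.0638 and 21.6% to 40.2% missing values, and no source used here gives the rule for its missing values. It served as an alternative.

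From the scanner intensities, background was corrected with normexp (offset 50), arrays were normalized by loess with control spots at weight 0, flagged outliers (0.55%) were set missing, and spots of a probe were averaged. Probes above background in Cy5 on at least 4 of 16 arrays were kept (30486 of 55681), and the brightest represented each gene (21911 tested, 15929 with a RefSeq symbol; 20069 probes were named by accession and 1252 renamed). limma 3.58.1 in R 4.3.3 fitted class plus slide, with Benjamini-Hochberg adjustment at 0.05. The number of arrays limits the precision. The code was tested on simulated data.

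The text names the up to 15 largest called rises and falls with RefSeq symbols whose classes did not overlap (then the next largest), called members of the gene lists, and a fixed set of genes. A gene from the first rule and a gene from the fixed set are not reported here. Others are said to have been picked after their values were seen. The classes, lists and genes were chosen with earlier results of these data known. Alternatives changed the signals, normalization, filter, probe rule, block and weights, used single slides, which was chosen after seeing the data, and left out each array. Replicate numbers were not used to pair samples.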

Additional observations from a re-analysis of the deposited data

Results flagged for a closer look

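Within groups of 4 arrays, 22 of 426 combinations of a named gene and a group had 1 array far from the other 3 by Dixon's criterion, where chance marks about 1 in 20. Untreated replicate 3 accounted for 6 and resistant replicate 1 for 5.

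Resistant replicate 1 was low for Ahnak2 (-0.09 where the others had 0.72 to 0.74), Sun2 (0.03 against 0.45 to 0.49) and Atg13 (0.38 against 0.65 to 0.70). The same array was high for Snai1 (1.35 against -0.14 to -0.07) and Fxyd5 (1.22 against -0.07 to 0.09). Untreated replicate 3 was low for Pvt1 (-1.88 against -1.29 to -1.19), Ccnd1 (1.75 against 2.72 to 2.81), Adam19 (1.96 against 2.91 to 3.1) and Calu (-0.52 against -0.12 to -0.04). It was high for Gpr143 (0.99 against 0.29 to 0.37) and Cd8a (1.37 against 0.32 to 0.47).

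In the other untreated tumours, Timp1 was 0.29 in replicate 1 (1.29 to 1.44 in the others) and Morrbid -0.39 in replicate 4 (-0.47 to -0.46). In the other resistant tumours, Dct was 7.54 in replicate 2 (4.34 to 4.81) and Mitf 0.05 in replicate 4 (0.62 to 0.68). Among 4-day tumours, Nkd1 was 1.96 in replicate 1 (1.11 to 1.23), Ccnd1 0.73 in replicate 2 (-0.13 to -0.04), Calu -0.63 in replicate 3 (-1.11 to -1.03) and Mmp13 0.14 in replicate 4 (-0.81 to -0.71). Among 60-day tumours, Pdia3 was 0.18 in replicate 1 (-0.22 to -0.16), Ccnd2 0.48 in replicate 2 (1.02 to 1.11) and Lrrc51 -1.04 in replicate 3 (-1.29 to -1.25).

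The difference between 4-day minus untreated and 60-day minus resistant tumours was itself tested in limma, and 2 transcripts passed. ENSMUST00000067018 had -1.64 and -0.14, a difference of -1.51 ± 0.14 (adjusted p = 0.00267). A noncoding transcript of chromosome 8 had -0.99 and 0.01, a difference of -0.99 ± 0.12 (adjusted p = 0.0177).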

How the results depend on the processing

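The count of 364 became 86 with the scanner software's processed signals, 3 with median centring, 100 with scaling between arrays, 76 in the deposited table, 69 with Cy5 alone, 43 with no filter on dim probes, 21 with no slide block, 611 as a contrast of 4 groups, 3260 with array weights, 2 on slide 1 alone and 0 on slide 2 alone (the last 2 chosen after seeing the data). Leaving out 1 array gave 7 to 1811. Of the 364, 363 kept their direction with processed signals, 349 of 353 measured did in the deposited table, and every measured one did under the other alternatives. All these settings reuse the arrays on which the 364 were selected. In 4-day minus untreated tumours alone, 24 calls became 4 with processed signals, 4 in the deposited table and 1873 with 60-day tumours in place of 4-day ones, and 0 to 200 with 1 array left out. In 60-day minus resistant tumours alone, 3 calls became 0 with processed signals, median centring, the deposited table, no slide block or 4-day tumours in place of 60-day ones. Leaving out 1 of the 60-day or resistant arrays gave 0 to 2. The cause of these moves was not tested. Of 87 called genes named, 86 kept their direction throughout; Oca2 was -0.089 in the deposited table. Uncalled genes turned too: Mki67 to 0.032 with median centring, 0.161 on slide 2, 0.034 without 4-day replicate 3 and 0.071 without untreated replicate 1 (-0.252 to 0.071 with 1 array left out); Cd274 to 0.114 and Cd8a to 0.089 on slide 2; Krt14 to -0.082 with scaling, -0.131 on slide 1 and -0.064 without resistant replicate 1 (-0.064 to 0.188 with 1 array left out); Adipoq to -0.096 with processed signals and -0.074 in the deposited table. No paired analysis was possible because the titles give no replicate number that pairs samples across the groups, and whether the shared codes mark an animal or a cage is not stated.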
